A study of Mus musculus with 26 samples.

Results

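Whole testes of adult homozygous *10xBulge* mice were compared with those of adult wild-type (WT) mice by sequencing of total RNA after depletion of ribosomal RNA. The comparison takes 4 of the 6 RNA-seq libraries of the series, N1 and N2 from WT and N5 and N6 from *10xBulge*, and all genes of the deposited table. The series holds 26 samples in all, and its MILI and MIWI immunoprecipitations were not analysed here. Each library came from a different mouse.

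In *10xBulge*, 10 binding sites for the pachytene piRNA piR-A were knocked into the 3′ untranslated region of *Ythdc2*, an RNA helicase gene needed for the entry into meiosis. Each site mismatches piR-A at piRNA positions 10 and 11, which flank the bond that a PIWI protein cuts. The line was made with CRISPR/Cas9 in the B6D2F1/J hybrid background and kept by crossing homozygotes. The labels give no litter, exact age or background for the WT mice, so genotype and any such difference cannot be told apart. The 2 libraries of *10xPerf*, which carries 10 perfectly complementary sites at the same place (N3 and N4), shared the estimate of the spread and are given beside some genes.

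Male germ cells pass from spermatogonia, which divide by mitosis, through spermatocytes, which carry out meiosis, to haploid spermatids. Round spermatids build the acrosome, a vesicle of enzymes and egg-binding proteins, and elongating spermatids assemble the tail and compact the nucleus. Sertoli cells nurse the germ cells inside the tubule, Leydig cells between the tubules make androgens, and resident macrophages lie beside them. Each library therefore mixes all these cells, and fewer cells of a type cannot be told apart from less RNA per cell.

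Of the 51124 genes in the table, 34847 were above 0 in at least 1 library and 23782 reached 10 normalized counts in 2 or more libraries and were tested. The deposited totals of WT and *10xBulge* ran from 39754103 to 59804251, and 3 reads were worth 2.73 to 3.63 normalized counts in these libraries. Ribosomal RNA made up 4.03% of N1 and at most 0.0933% of N2, N5 and N6. Log2 levels correlated across genes at 0.956 between N1 and N2 and 0.951 between N5 and N6, against 0.765 to 0.822 between the genotypes. *Ythdc2* itself (ENSMUSG00000034653.12, chromosome 18) had 827 and 2412 normalized counts in WT and 1202 and 2458 in *10xBulge*, overlapping ranges with a log2 fold change of 0.28 (standard error, SE, 0.57, limma adjusted p = 0.754).

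The testes of the 2 *10xBulge* mice lost RNA of late germ cells on a large scale. They held relatively more RNA of Sertoli cell, Leydig cell, macrophage and fibroblast genes. The paper reports lower expression of postmeiotic genes in this line and occasionally smaller litters, but no effect on fertility in any homozygous knock-in line. Whether these 2 mice are typical of the line was not tested. At a limma adjusted p under 0.1, 5466 genes were lower than in WT (23.0% of those tested) and 2712 were higher (11.4%). Among the 17550 protein-coding genes, 16.9% were lower and 14.6% were higher. A fit of the 18064 genes that reached 10 in every library called 2926 lower (16.2%) and 2599 higher (14.4%). The excess of falls in number was thus small among genes detected in every library. The falls were the larger changes, with a median log2 fold change of -3.36 among genes called lower and 1.50 among genes called higher. A change of at least 4 on the log2 scale was seen in 2196 of the falls and 37 of the rises. The genes called lower carried 27.4% and 25.5% of the WT totals and 6.97% and 6.14% of the *10xBulge* totals, and those called higher carried 3.49% and 4.51% in WT and 14.2% and 14.3% in *10xBulge*.

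The falls were less dependent on single libraries than the rises. Of the genes called lower, 3612 were called again in all 4 fits that left out a library, and of those called higher, 354 were. Without N1, 636 genes were higher and 3919 lower, and without N5, 1711 were higher and 5574 lower. Scaling each library to the same total gave 5788 higher and 4745 lower and moved the median of all genes from -0.026 to 0.358. Rises below are therefore relative to the deposited scaling.

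The lists of germ cell genes were ordered roughly by stage, although those of all germ cells, axoneme genes, and X and Y spermatid genes are not single stages. Median log2 fold changes ran from -0.21 to 0.80 in the lists of spermatogonia, meiosis and all germ cells, beside -0.026 over all genes tested. They were -1.15 for axoneme genes and -4.75 and -6.20 for the spermatid lists. Over the 18 pachytene spermatocyte genes the median log2 level was 13.43 and 13.58 in WT and 13.26 and 13.02 in *10xBulge*. Over the 27 axoneme genes it was 12.76 and 12.80 in WT and 11.26 and 11.33 in *10xBulge*. Over the 24 round spermatid genes it was 12.46 and 12.59 in WT and 8.36 and 7.31 in *10xBulge*, and over the 34 elongating spermatid genes 13.97 and 13.78 in WT and 8.56 and 7.39 in *10xBulge*.

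**Figure D1:**
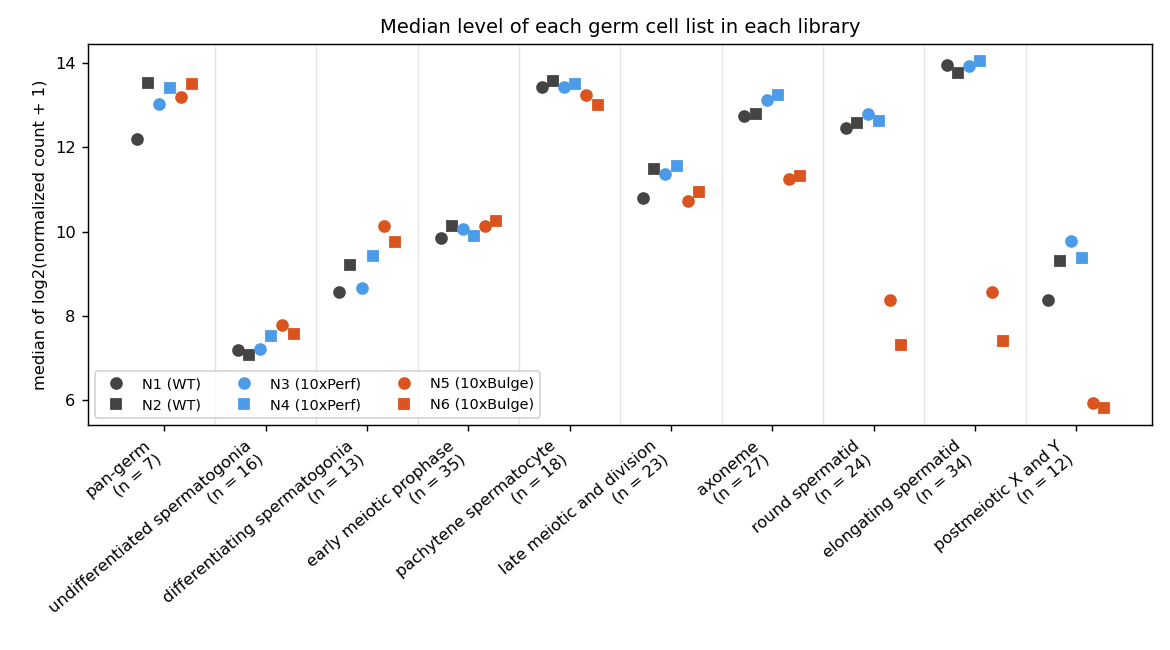
Median of log2(normalized count + 1) over the tested genes of each germ cell list (y axis), by list (x axis, n is the number of genes), with 1 point per library: WT in dark grey, *10xPerf* in blue, *10xBulge* in orange. The lists run roughly by stage, but those of all germ cells, axoneme genes, and X and Y spermatid genes are not single stages. The orange points lie above the others for spermatogonia, slightly below them for pachytene spermatocytes (13.26 and 13.02) and far below them for spermatids, down to 8.56 and 7.39 for elongating spermatid genes.

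Elongating spermatid genes were nearly all lower. Of the 34 tested, 32 were called lower (94.1%, beside 23.0% of all genes) and 0 higher. The median log2 fold change was -6.20, with a range of -10.12 to -0.65. Leaving out a library gave 27 to 32 calls, and 27 genes were called in all 4 such fits. The list holds no protamine or transition protein gene.

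*Spem1*, needed to shed the cytoplasm of the late spermatid, had 33633 and 22822 normalized counts in WT and a mean of 34.1 ± 8.32 (SD, n = 2) in *10xBulge* (log2 fold change -9.65, SE 0.42, limma adjusted p = 3.77e-06). *Fscn3*, a testis form of the actin-bundling fascin, had 18214 and 8686 in WT and 10.9 and 9.70 in *10xBulge* (-10.12, SE 0.50, adjusted p = 4.39e-06). *Cabs1*, a calcium-binding protein of the sperm tail, had 9525 and 18489 in WT and 14.6 and 23.3 in *10xBulge* (-9.41, SE 0.45, adjusted p = 4.39e-06). Every WT library stood far above every *10xBulge* library for these genes, and *10xPerf* lay with WT (17108 and 24152 for *Spem1*). *Spata3* and *Tppp2*, also expressed late, had log2 fold changes of -9.17 and -9.35.

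Genes of the fibrous sheath and outer dense fibres, which stiffen the tail, and of sperm energy supply fell as well. *Akap4*, the main protein of the fibrous sheath and encoded on the X chromosome, had 29955 and 59331 normalized counts in WT and 346 and 196 in *10xBulge* (log2 fold change -7.33, SE 0.49, limma adjusted p = 9.39e-06). *Gapdhs*, the glycolytic enzyme of the tail, fell by 7.29 on the log2 scale. *Odf1*, of the outer dense fibres, and *Akap3*, of the fibrous sheath, had log2 fold changes of -6.65 and -5.53. *Oaz3*, the antizyme of spermatids, had 146807 and 102405 in WT and 864 and 622 in *10xBulge*, and it was the protein-coding gene outside the protamines and transition proteins that lost the largest share of the library total, followed by *Gsg1* (119333 and 80776 in WT, 1530 and 925 in *10xBulge*).

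No member fell by between 2 and 4. Of the 32 genes called lower, 27 fell by at least 4 and the other 5 by less than 2 on the log2 scale. The 5 were *Odf4*, *Ropn1l*, *Rimbp3*, *Septin12* and *Fsip2*, with log2 fold changes of -1.18, -1.34, -1.79, -1.20 and -1.53, and each was called in 1 or 2 of the 4 fits without a library. *Rimbp3*, a manchette protein, had 34446 and 32387 normalized counts in WT and 20379 and 4593 in *10xBulge*, so N5 kept more of it than N6. *Fabp9* (-0.93, limma adjusted p = 0.111) and *Ldhal6b* (-0.65, adjusted p = 0.393) did not pass the test.

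Acrosome and other round spermatid genes were lower in 21 of 24 cases (87.5%, beside 23.0% of all genes), and 0 were higher. The median log2 fold change was -4.75, with a range of -6.87 to -0.11. Leaving out a library gave 18 to 21 calls, and 18 genes were called in all 4 such fits. *Spaca7*, an acrosomal protein, had 1026 and 1438 normalized counts in WT and 10.5 and 12.3 in *10xBulge* (-6.62, SE 0.45, limma adjusted p = 1.05e-05). *Lyzl6*, a lysozyme-like sperm protein, had 3418 and 3689 in WT and 100 and 110 in *10xBulge* (-5.07, SE 0.37, adjusted p = 1.36e-05). In both genes the *10xBulge* libraries lay close together and below every other library.

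Genes of CatSper, the sperm calcium channel, fell by unequal amounts. *Catsper1*, *Catsper3* and *Catsper4*, which encode pore subunits, had log2 fold changes of -6.69, -5.22 and -4.96. *Catsper2*, which encodes the remaining pore subunit, had 4936 and 6524 normalized counts in WT and 3475 and 2161 in *10xBulge* (-1.05, SE 0.41, limma adjusted p = 0.0932), and its adjusted p rose to 0.284 with a library left out. A direct test of the difference between the subunits was not made.

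*Acr*, the acrosin protease, had 13075 and 8406 normalized counts in WT and 5484 and 3152 in *10xBulge* (-1.33, limma adjusted p = 0.0548), and its binding protein *Acrbp* 36720 and 20927 in WT and 14212 and 6887 in *10xBulge* (-1.49, adjusted p = 0.0565). Each of these calls held in 2 of the 4 fits without a library. *Dpy19l2*, *Zpbp* and *Zpbp2* did not pass the test, and for *Zpbp* the *10xBulge* libraries lay on either side of WT (8128 and 9107 in WT, 4586 and 10868 in *10xBulge*). *Crem*, the transcription factor that switches on many spermatid genes, had 3561 and 6306 in WT and 1209 and 1449 in *10xBulge* (-1.84, SE 0.43, adjusted p = 0.0119).

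**Figure D2:**
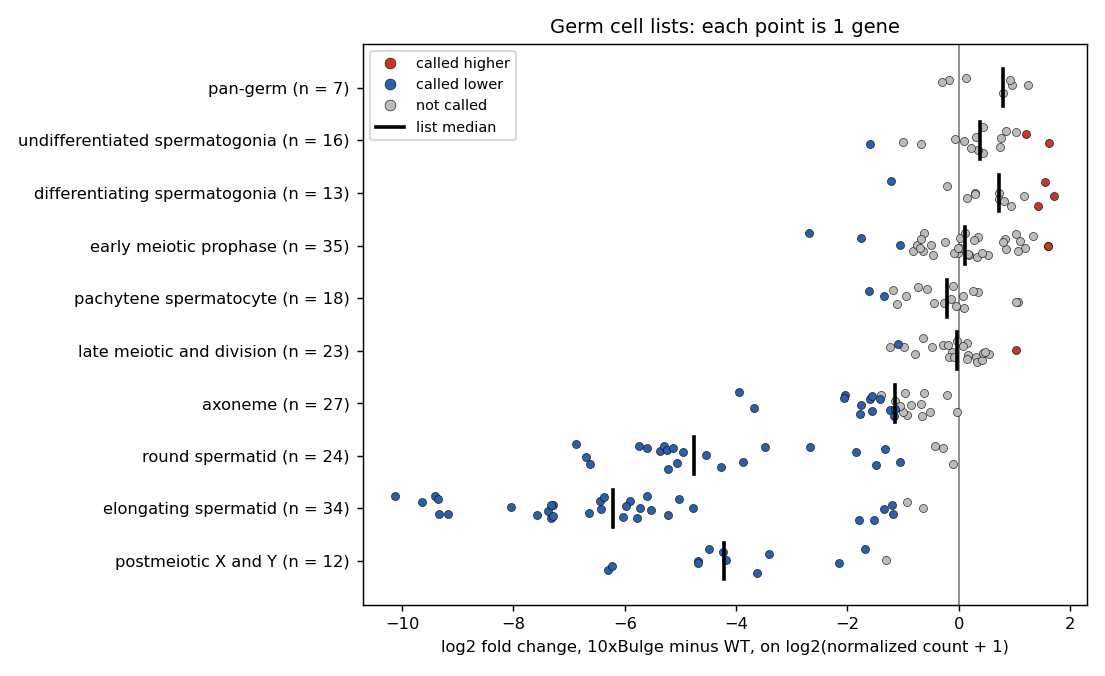
Log2 fold change of *10xBulge* against WT on log2(normalized count + 1) (x axis) for each tested gene of the germ cell lists (rows; vertical position within a row is arbitrary), with red for genes called higher, blue for genes called lower, grey for genes not called, and a black bar at the list median. Points of the elongating and round spermatid lists reach -10.12 and -6.87, while no pachytene spermatocyte gene lies below -1.62.

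CREM binds the cyclic AMP response element, and A-MYB, encoded by *Mybl1*, drives many genes from the pachytene stage on. Promoter windows of 300 bases, 250 before and 50 after a gene start, were taken from RefSeq (GRCm38.p6) and searched on both strands for the letters TGACGTCA of the response element and TAACNG of the MYB site. The windows below, 5′ to 3′ on the strand of the gene, show the response element in spermatid genes called lower and the MYB site in axoneme genes called lower, with the motif in capitals and 10 bases on each side. In *Spag17* the capitals are the reverse complement of the MYB site.

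Izumo1: tgccaccctaTGACGTCAcgatgggatg
Ccin: atccattctaTGACGTCAccctctctcc
Spag6: gcctgggactTAACTGttgcgacagg
Cfap43: ggccaaggagTAACGGccgcagcccc
Spag17: ggcgtggtctCGGTTAccaaggcctc
Rsph9: cgcgctgggaTAACAGaatacatgag
Tekt4: caccacagatTAACCGtttctgccgt

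The *Izumo1* window (chr7:45621705-45621732, forward strand) has its motif centre 92 bases before the gene start, and that of *Ccin* (chr4:43983444-43983471, forward strand) 46 bases before it. *Izumo1*, the sperm protein that binds the egg, fell by 4.28, and *Ccin*, the calicin of the sperm head, fell by 7.29. The *Spag6* window lies at chr2:18698935-18698960 on the forward strand and that of *Cfap43* at chr19:47837347-47837372 on the reverse strand. The others are chr3:99885406-99885431 (*Spag17*, forward), chr17:46144318-46144343 (*Rsph9*, reverse) and chr17:25471347-25471372 (*Tekt4*, forward).

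Of the 58 spermatid genes tested, 48 had a window and 2 of these held the response element (4.17%), beside 2.03% of the 27025 genes with a window. Of the 27 axoneme genes, 23 had a window and 10 held the MYB site (43.5%), beside 25.9% of the same 27025 genes. These 27025 include genes not tested here, and a gene counted if any of its windows held the motif. The axoneme windows printed above are from genes called lower only. Whether holders of the site fell more than other axoneme genes was not tested. The MYB site was also in 13 of the 48 spermatid genes with a window (27.1%), near the share of the 27025 genes. The response element was in 0 of the axoneme windows. The letters GTTGCCATG of an RFX site, found in 0.877% of the 27025 genes, were in 0 windows of either group. Windows were found for 78.0% of the protein-coding genes tested, under the 80% set as a minimum, so shares over all genes called lower or higher are void and not given. A match of letters is a description and not a binding site.

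Axoneme genes encode the motile core of the tail and are transcribed from the pachytene stage on. All 27 had a negative log2 fold change. Of these, 13 were called lower (48.1%, beside 23.0% of all genes and 16.9% of protein-coding genes) and 0 higher. The median log2 fold change was -1.15 with a range of -3.95 to -0.03. Without N2 8 were called and without N5 18, and 6 were called in all 4 fits that left out a library. Scaling to equal totals gave 9 calls and a median of -0.77.

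*Spag6*, of the central pair, had 7394 and 4016 normalized counts in WT and 630 and 196 in *10xBulge* (log2 fold change -3.95, SE 0.58, limma adjusted p = 0.000837). *Tekt2*, a filament inside the outer doublets, had 10064 and 9978 in WT and 1801 and 338 in *10xBulge* (-3.68, SE 0.67, adjusted p = 0.00329). *Cfap69*, a further axoneme gene, fell by 2.04 on the log2 scale. The large axonemal dynein genes moved less: *Dnah1* had 15972 and 16410 in WT and 27018 and 9290 in *10xBulge* (-0.03, adjusted p = 0.975), and *Dnah8* and *Dnah17* had log2 fold changes of -0.67 and -0.62 and did not pass the test either.

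Genes of meiosis changed in both directions and in small numbers. In the pachytene list 2 of 18 genes were called lower and 0 higher, with a median log2 fold change of -0.21. In the list of late meiosis and division 1 of 23 was called lower and 1 higher, with a median of -0.03, and in that of early meiotic prophase 3 of 35 were called lower and 2 higher, with a median of 0.12. All these shares are below those of the background (23.0% lower, 11.4% higher). With equal totals the pachytene and late meiotic medians changed sign, to 0.17 and 0.35, and the early prophase median was 0.50. With a library left out the late meiotic median ran from -0.26 to 0.30 and the early prophase median from -0.17 to 0.49, and the number of early prophase genes called higher was 0 without N1, 7 without N2, 4 without N5 and 1 without N6. In the late meiotic list 0 genes were called in either direction without N1, and 3 were called lower without N5.

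*Ldhc*, the lactate dehydrogenase that appears in spermatocytes, had 60853 and 83439 normalized counts in WT and 79447 and 59873 in *10xBulge* (-0.05, SE 0.46, limma adjusted p = 0.955). *Piwil1*, which encodes MIWI, had 19394 and 19694 in WT and 35738 and 17380 in *10xBulge* (0.35, adjusted p = 0.618), and *Mybl1* 2152 and 5110 in WT and 2498 and 4859 in *10xBulge* (0.07, adjusted p = 0.939). The genotypes overlapped for these 3 genes. The pachytene genes called lower were *Hspa4l*, a chaperone, with 20988 and 26078 in WT and 6759 and 8626 in *10xBulge* (-1.62, adjusted p = 0.0199), and *Ybx2*, an mRNA-storing protein of germ cells (-1.34, adjusted p = 0.0743). Without N1, N2 or N6 1 gene of the list was called lower, and without N5 4 were.

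In early prophase, *Rec8*, the meiotic cohesin subunit, had 4185 and 2507 normalized counts in WT and 886 and 285 in *10xBulge* (log2 fold change -2.69, SE 0.55, limma adjusted p = 0.00659). *Syce2* and *Syce3*, of the central element of the synaptonemal complex, fell by 1.76 and 1.05, while *Dmc1*, the meiotic recombinase, rose from 219 and 565 in WT to 1227 and 932 in *10xBulge* (1.60, adjusted p = 0.0446). *Meioc*, the partner of YTHDC2, had 4283 and 8982 in WT and 12747 and 27869 in *10xBulge* (1.60, adjusted p = 0.0585). Of these, *Rec8* was called in all 4 fits without a library. *Sycp3* and *Spo11*, of the chromosome axis and of break formation, had log2 fold changes of 0.03 and -0.02. Among the division genes *Cdk1* rose (1.03, adjusted p = 0.0938) and *Eif4g3* fell (-1.09, adjusted p = 0.0905), and each call held in 1 of the 4 fits without a library (adjusted p up to 0.238 and 0.278).

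In the list of differentiating spermatogonia 3 of 13 were called higher (23.1%, beside 11.4% of all genes and 14.6% of protein-coding genes) and 1 lower, with a median log2 fold change of 0.73 that was 0.44 without N1, and 11 of 13 log2 fold changes were positive. *Kit*, the receptor that marks the onset of differentiation, had 1652 and 1473 normalized counts in WT and 5556 and 4738 in *10xBulge* (1.72, SE 0.40, limma adjusted p = 0.0127) and was the gene of this list called in all 4 fits without a library. Which cells of the testis carried the *Kit* RNA was not tested. *Sohlh2*, a transcription factor of differentiating spermatogonia, had 380 and 589 in WT and 1280 and 1251 in *10xBulge* (1.42, adjusted p = 0.0466). *Tktl1* rose by 1.55. *Stra8*, the gene of meiotic entry, had 212 and 787 in WT and 1441 and 596 in *10xBulge*, with overlap between the genotypes. *Dmrtb1* went the other way, with 50577 and 32401 in WT and 24260 and 12677 in *10xBulge* (-1.21, adjusted p = 0.0959). Without N1 1 gene was called higher and without N2 5, and 0 were called lower without N1, N2 or N6.

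Of 16 genes of undifferentiated spermatogonia 2 were higher (*Tspan8* and *Lin28a*, 1.62 and 1.20) and 1 lower (*Nanos3*, -1.60), with a median of 0.38. The share called higher was 12.5%, near the 11.4% of all genes and 14.6% of protein-coding genes. *Gfra1*, the receptor that marks stem cells, had 191 and 163 normalized counts in WT and 260 and 216 in *10xBulge* (0.43, limma adjusted p = 0.479). Without N1, 0 genes of this list were called in either direction, and without N2 1 was higher and 0 lower. Of the 15 DNA replication genes 3 were higher (*Rrm2*, *Mcm6* and *Mcm4*), a share of 20% beside 11.4% of all genes and 14.6% of protein-coding genes. The median was 0.70, with 1.08 without N2 and 0.51 without N5, and 1.09 with equal totals. There were 0 such calls without N1, 1 without N5 and 5 without N6. Among genes of all germ cells, 0 of 7 were called. *Ddx4*, the germ cell helicase, had 7217 and 16035 in WT and 7919 and 11555 in *10xBulge* (-0.17, adjusted p = 0.831), and N1 lay below N2 for all 7.

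The sex chromosomes held larger shares of called genes than the autosomes, a difference that was not tested. They are silenced in meiosis, and a set of their genes is transcribed again in spermatids. Of the protein-coding genes tested, 14.2% were higher and 16.3% lower on the autosomes (n = 16663). On the X chromosome 25.5% were higher and 22.5% lower (n = 766, median log2 fold change 0.60, beside 0.19 on the autosomes), and on the Y chromosome 76 of 102 were lower and 1 higher (74.5% lower, median -3.75). Many Y-linked genes have near-identical copies, among which the authors' assignment of reads may be split, so these genes are not independent.

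Of 12 spermatid genes of the X and Y chromosomes 11 were lower (91.7%, beside 23.0% of all genes) and 0 higher. The median log2 fold change was -4.21. *Cypt1*, of the X-linked perinuclear theca, had 9445 and 7684 normalized counts in WT and 133 and 84.9 in *10xBulge* (-6.31, SE 0.47, limma adjusted p = 1.53e-05). The multicopy *Ssty2* on the Y chromosome had 537 and 654 in WT and stood at 7.89% of the WT mean in *10xBulge* (-3.63, adjusted p = 0.000133). *Zfy2* had 153 and 351 in WT and 47.1 and 183 in *10xBulge* (-1.31, adjusted p = 0.187), and the genotypes overlapped. *Slx* was too low to be tested.

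The 7 autosomal genes that stand in for silenced X-linked genes during meiosis were looked at beside their X-linked parents. Of the retrocopies 2 of 7 were lower, *Pgk2* with 18524 and 27021 normalized counts in WT and 5877 and 3904 in *10xBulge* (log2 fold change -2.22, limma adjusted p = 0.00564) and *G6pd2* (-5.82, adjusted p = 3.79e-05). The other 5, among them *Pdha2* (0.43) and *Rpl10l* (-0.26), were not called. The share called lower was 28.6%, near the 23.0% of all genes tested and beside 16.9% of protein-coding genes. Of the parents 5 of 7 were higher and 1 lower. The share called higher was 71.4%, beside 25.5% of protein-coding genes on the X chromosome and 11.4% of all genes. *Pdha1* had 168 and 290 in WT and 1067 and 894 in *10xBulge* (2.14, adjusted p = 0.00764), *Pgk1* rose by 1.93 and *G6pdx* by 1.68, while *Cstf2* fell by 1.91. *Pdha1* and *Cstf2* were called in all 4 fits without a library, and without N1 *Pdha1* alone was called higher. Without N2 or N5 2 parents were higher.

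**Figure D3:**
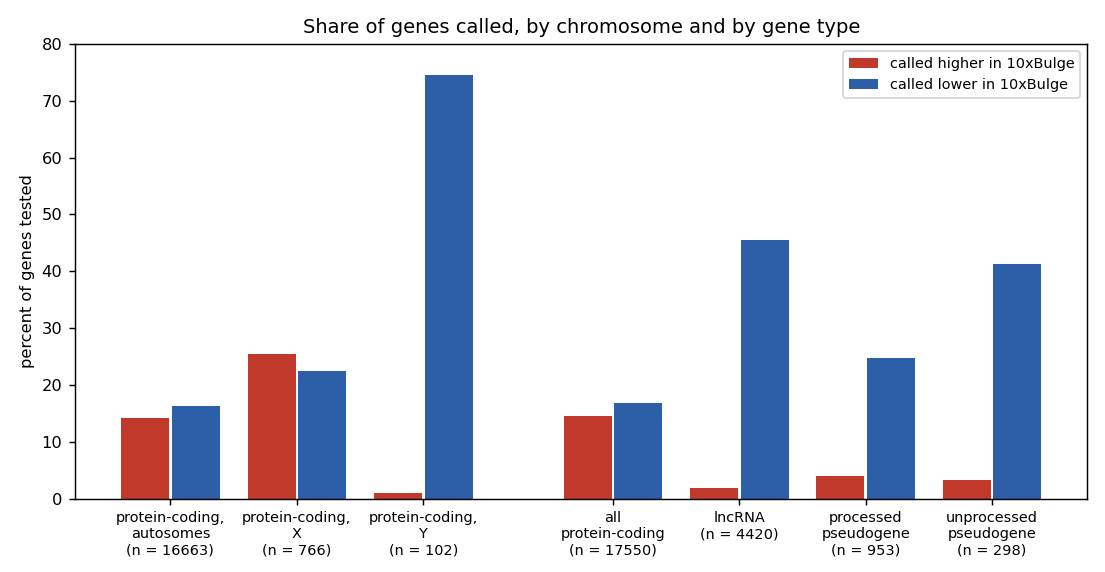
Percent of tested genes called higher (red) and lower (blue) in *10xBulge* (y axis, from 0) for protein-coding genes of the autosomes, X and Y chromosomes and for 4 gene types (x axis, n is the number of genes tested). The tallest bars are the Y chromosome (74.5% lower) and lncRNA genes (45.5% lower).

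Long noncoding RNA genes were lower far more often than higher, with 2011 of 4420 lower (45.5%), 85 higher (1.92%) and a median log2 fold change of -1.21. Of the 17550 protein-coding genes 2964 were lower and 2565 higher, with a median of 0.20. Of 298 unprocessed pseudogenes 123 were lower (41.3%) and 10 higher (3.36%). A gene could enter the test through its WT or *10xPerf* libraries alone, so the shares called lower by gene type and by chromosome can depend on that filter. No test compared these groups.

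Among somatic cells, genes of Leydig cells, Sertoli cells and macrophages held the largest shares of rises. All 20 Sertoli genes had a positive log2 fold change, 13 were called higher and 0 lower (65.0%, beside 11.4% of all genes), and the median log2 fold change was 1.28, with a range of 0.23 to 1.94. The median log2 level of the list was 10.55 and 10.46 in WT and 11.88 and 11.50 in *10xBulge*. Calls dropped to 2 without N1, 5 without N2 and 4 without N5, and the median ran from 0.86 to 1.57 with a library left out. Scaling to equal totals gave 19 calls. A fit without *10xPerf*, which called 7.53% of all genes higher, called 8 of the list higher.

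*Fshr*, the receptor for follicle-stimulating hormone, had 128 and 184 normalized counts in WT and 667 and 526 in *10xBulge* (1.94, SE 0.44, limma adjusted p = 0.0113) and was the Sertoli gene called in all 4 fits without a library. *Ctsl*, a secreted protease of Sertoli cells, had 4818 and 10263 in WT and 24432 and 20480 in *10xBulge* (1.67, adjusted p = 0.0303). *Amh*, the hormone of immature Sertoli cells, had 108 and 118 in WT and 390 and 233 in *10xBulge* (1.41, adjusted p = 0.0501). *Sox9*, the defining transcription factor, had 1883 and 1951 in WT and 5708 and 2731 in *10xBulge*, above WT in both libraries without passing the test (1.04, adjusted p = 0.129). *Clu*, the Sertoli protein clusterin, gained the largest share of the library total among the Sertoli genes, with 48083 and 46738 in WT and 196126 and 75652 in *10xBulge* (1.36, adjusted p = 0.0971).

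Genes of adult Leydig cells and androgen synthesis were higher in 10 of 14 cases (71.4%, beside 11.4% of all genes) and lower in 0. The median log2 fold change was 1.75, and a fit without *10xPerf* called 9 of the list higher. The median log2 level was 10.21 and 10.92 in WT and 12.71 and 11.75 in *10xBulge*, with N5 above N6. *Hsd3b1*, which converts pregnenolone to progesterone, had 1091 and 3048 normalized counts in WT and 17578 and 8935 in *10xBulge* (2.78, SE 0.59, limma adjusted p = 0.00745). *Sult1e1*, the estrogen sulfotransferase, had 107 and 353 in WT and 1930 and 1764 in *10xBulge* (3.24, SE 0.62, adjusted p = 0.00431). *Cyp17a1*, which makes the androgen precursors, had 11809 and 11888 in WT and 86000 and 34939 in *10xBulge* (2.21, adjusted p = 0.0151).

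The steps of the pathway did not pass the test together. *Cyp11a1*, which cleaves the cholesterol side chain, had 11343 and 8635 normalized counts in WT and 40991 and 12229 in *10xBulge* (1.18, limma adjusted p = 0.183), and *Star*, which carries cholesterol into mitochondria, had 1284 and 4225 in WT and 8128 and 2977 in *10xBulge* (1.08, adjusted p = 0.275), with overlap. *Insl3*, the peptide hormone of Leydig cells, had 23936 and 42337 in WT and 130172 and 76579 in *10xBulge* (1.65, adjusted p = 0.0446). Without N1 2 of the 14 genes were called and without N5 6, and *Hsd3b1* and *Sult1e1* were the 2 called in all 4 fits without a library.

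Of 17 genes of cholesterol synthesis and uptake 6 were higher and 0 lower, with a median of 0.79. The share called higher was 35.3%, beside 11.4% of all genes and 14.6% of protein-coding genes. A fit without *10xPerf*, which called 7.53% of all genes higher, called 3 of the list higher. *Msmo1*, the sterol methyl oxidase, had 521 and 772 normalized counts in WT and 3183 and 3720 in *10xBulge* (2.44, SE 0.48, limma adjusted p = 0.00491), and *Sc5d* and *Hmgcs1* rose by 1.64 and 1.63. *Fdft1*, with 18101 and 13992 in WT and 12832 and 4905 in *10xBulge*, did not pass the test (adjusted p = 0.180). *Msmo1* and *Sc5d* were called in all 4 fits without a library, and without N1 3 genes of the list were higher. Of 5 genes of progenitor and fetal Leydig cells *Nr2f2* and *Thbs2* were higher, by 1.10 and 1.30 (40%, beside 11.4% of all genes). A fit without *10xPerf* called 0 of the 5 higher.

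Macrophage and antigen presentation genes were higher in 13 of 17 cases (76.5%, beside 11.4% of all genes) and lower in 1. The median log2 fold change was 1.40, and a fit without *10xPerf* called 11 of the list higher. *Lyz2*, the lysozyme of macrophages, had 583 and 962 normalized counts in WT and 4395 and 3715 in *10xBulge* (2.43, SE 0.49, limma adjusted p = 0.00578). *Adgre1*, which encodes the marker F4/80, had 224 and 145 in WT and 647 in each *10xBulge* library (1.84, adjusted p = 0.0101). *Cd163* and *Csf1r* rose by 2.45 and 1.89, the latter from 766 and 584 to 3899 and 1584. *Aif1*, which encodes IBA1, ran against the list: it had 5411 and 5074 in WT and 144 and 77.6 in *10xBulge* (-5.62, SE 0.42, adjusted p = 1.50e-05). Without N1 3 genes were called higher, without N2 5 and without N5 5, and *Lyz2* and *Adgre1* were called in all 4 fits.

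**Figure D4:**
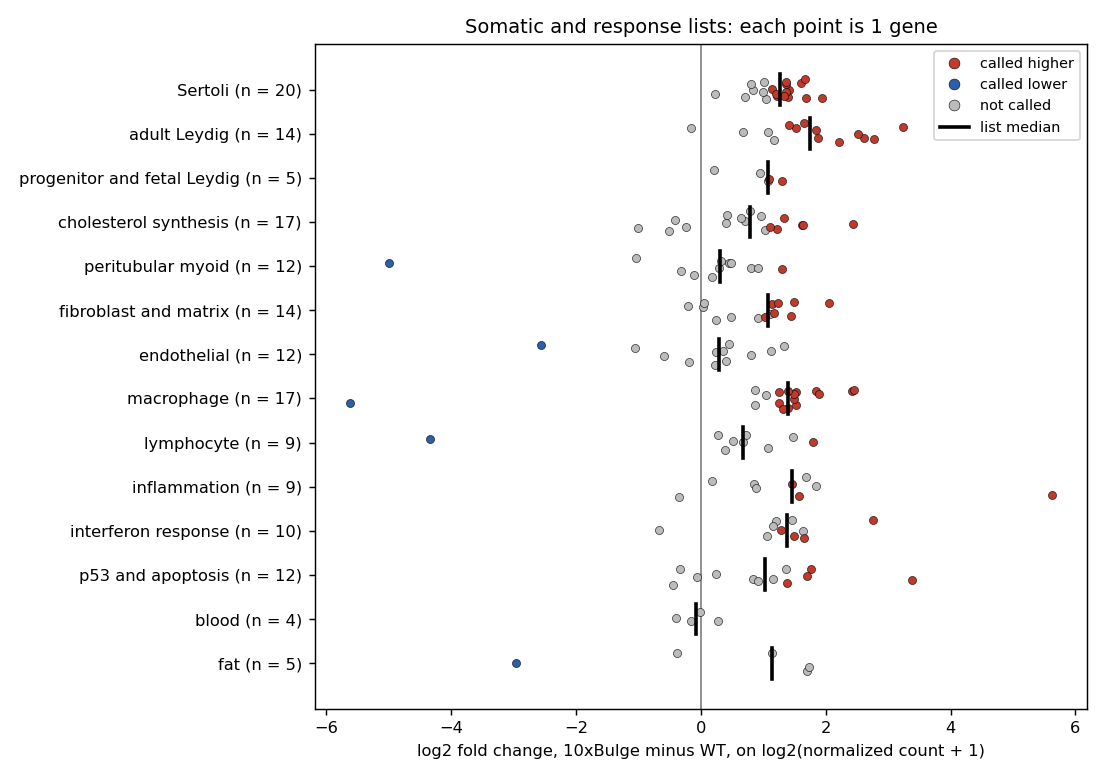
Log2 fold change of *10xBulge* against WT on log2(normalized count + 1) (x axis) for each tested gene of the somatic and response lists (rows; vertical position within a row is arbitrary), with red for genes called higher, blue for genes called lower, grey for genes not called, and a black bar at the list median. Sertoli genes lie between 0.23 and 1.94, and single blue points stand apart at -5.62 (*Aif1*), -4.99 (*Actg2*) and -4.33 (*Cd3d*).

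Other somatic markers that fell steeply were likewise alone in their lists. *Actg2*, the smooth muscle gamma actin, had 11533 and 7921 normalized counts in WT and 397 and 228 in *10xBulge* (-4.99, SE 0.43, limma adjusted p = 3.18e-05). *Cd3d*, of the T cell receptor complex, had 440 and 360 in WT and 20.6 and 17.3 in *10xBulge* (-4.33, adjusted p = 8.92e-05), and *Sox17*, a transcription factor of endothelium, 1534 and 1078 in WT and 370 and 129 in *10xBulge* (-2.55, adjusted p = 0.00698). Each was called in all 4 fits without a library, and each stood apart from its list. *Cd3e* had 110 and 75.1 in WT and 122 and 99.6 in *10xBulge* (0.28, adjusted p = 0.721), and *Acta2*, the smooth muscle alpha actin, 4261 and 2340 in WT and 6357 and 4786 in *10xBulge* (0.80, adjusted p = 0.204). RNA of *Aif1*, *Actg2* and *Sox17* is also known from spermatids, and which cells carried it here was not tested.

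Apart from these genes, vessel and muscle lists moved little. Of 12 endothelial genes 0 were higher and *Sox17* was the 1 lower, with a median of 0.30 that became 0.04 without N5 and 0.57 without N6, and *Pecam1* had 88.0 and 158 normalized counts in WT and 215 and 115 in *10xBulge*. Of 12 peritubular myoid genes *Mylk* was higher (1.30, limma adjusted p = 0.0647) and *Actg2* lower, with a median of 0.31 that became -0.20 without N5 and 0.72 without N6. Of 9 lymphocyte genes *Ptprc* was higher (1.80, adjusted p = 0.0519) and *Cd3d* lower, with a median of 0.67 and 8 positive log2 fold changes. The shares called higher were 0% (endothelial), 8.33% (myoid) and 11.1% (lymphocyte), beside 11.4% of all genes. Those called lower were 8.33%, 8.33% and 11.1%, beside 23.0% of all genes. Each of the 2 calls upwards, *Mylk* and *Ptprc*, held in 2 of the 4 fits without a library.

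Fibroblast and matrix genes were higher in 7 of 14 cases (50%, beside 11.4% of all genes) and lower in 0. The median was 1.07, and a fit without *10xPerf* called 2 of the list higher. *Pdgfra*, a receptor of interstitial fibroblasts and Leydig progenitors, had 611 and 780 normalized counts in WT and 4159 and 1999 in *10xBulge* (2.06, SE 0.47, limma adjusted p = 0.0109) and was called in all 4 fits without a library. *Tcf21*, a transcription factor of the same cells, rose by 1.45 and *Col3a1* by 1.24. *Col4a1*, of the basement membrane, had 2744 and 2045 in WT and 6301 and 1254 in *10xBulge*, with the 2 *10xBulge* libraries on either side of WT. Without N1 1 gene was called, without N2 4 and without N5 2.

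Response genes rose in part. Of 9 tested inflammation genes 3 were higher and 0 lower, with a median of 1.46. The share called higher was 33.3%, beside 11.4% of all genes and 14.6% of protein-coding genes. A fit without *10xPerf*, which called 7.53% of all genes higher, called 2 of the list higher. *Saa3*, an acute phase protein, was at 1.29 and 2.33 normalized counts in WT, under the worth of 3 reads, and at 119 and 156 in *10xBulge*, at least 42-fold higher when that floor is used. *10xPerf* lay between them at 10.0 and 39.1. *Lcn2*, which binds bacterial siderophores, had 12631 and 10479 in WT and 44744 and 22546 in *10xBulge* (1.46, limma adjusted p = 0.0566), and *Socs3* rose by 1.58. *Il1b* had 2.47 and 15.4 in WT and 4.39 and 12.6 in *10xBulge*, and *Il6* and *Tnf* were too low to be tested. Fits without a library called 2 to 4 genes of this list.

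Of 10 interferon response genes 4 were higher, led by *Rsad2* with 3.78 and 8.32 normalized counts in WT and 39.9 and 49.3 in *10xBulge* (2.76, SE 0.62, limma adjusted p = 0.0101). The median was 1.37. The share called higher was 40%, beside 11.4% of all genes, and a fit without *10xPerf* called 3 of the list higher. Of 12 genes of the p53 response and apoptosis 4 were higher, with a median of 1.04, led by the death receptor gene *Eda2r*, with 6.37 and 12.8 in WT and 77.5 and 139 in *10xBulge* (3.38, SE 0.58, adjusted p = 0.00229). *Eda2r* had 39.5 and 53.2 in *10xPerf*. Of the p53 list 33.3% were called higher, beside 11.4% of all genes, and a fit without *10xPerf* called 1 gene higher. *Pmaip1*, which promotes apoptosis, had 84.2 and 171 in WT and 246 and 692 in *10xBulge* (1.77, adjusted p = 0.0550), while *Bax* and *Mdm2*, other p53 targets, had log2 fold changes of 0.25 and -0.33 and did not pass the test. *Rsad2* and *Eda2r* were called in all 4 fits without a library, and without N1 each was the 1 gene of its list called higher. Without N5 2 interferon genes were higher, and without N6 1 gene of the p53 list was.

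**Figure D5:**
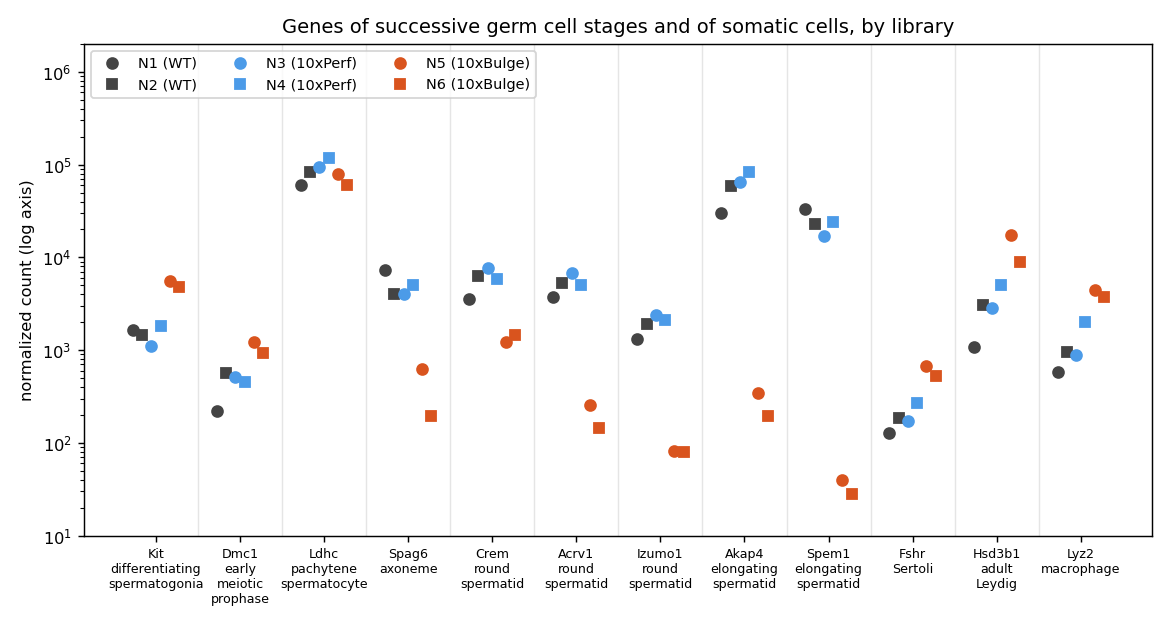
Normalized count (y axis, log scale) of 12 genes of successive germ cell stages and of somatic cells (x axis, with the list of each gene), with 1 point per library: WT in dark grey, *10xPerf* in blue, *10xBulge* in orange. The 12 genes were chosen after their values were seen. The orange points lie above WT for *Kit* and *Dmc1*, overlap it for *Ldhc*, lie below it from *Spag6* to *Spem1* and above it for *Fshr*, *Hsd3b1* and *Lyz2*.

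Tissue that adjoins the testis was looked for with its own markers. Of 9 epididymis genes 1 was high enough to be tested, *Rnase10*, with 216 and 233 normalized counts in WT and 252 and 138 in *10xBulge*, and *Lcn5* was listed at 0 in every library. Of 4 tested genes of red blood cells 0 were called. Of 5 fat genes *Adipoq* was called lower (log2 fold change -2.96, limma adjusted p = 0.0694), in 1 of the 4 fits without a library, and 0 were called higher. The median of 1.14 became -0.42 without N5 and 1.95 without N6. Fat genes differed between the *10xBulge* libraries: *Lep* had 42.7 and 45.1 in WT and 639 and 34.2 in *10xBulge*, *Cidec* 39.2 and 39.8 in WT and 568 and 29.3 in *10xBulge*, and *Adipoq* 360 and 444 in WT and 212 and 11.4 in *10xBulge*. The part of adhering fat in other differences between N5 and N6 was not tested.

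The largest falls among protein-coding genes outside *Prm* and *Tnp* were mostly of genes known by a clone or model number. *Gm5901* had 9675 and 6685 normalized counts in WT and 0.679 and 0.182 in *10xBulge*, at least 2904-fold lower against the worth of 3 reads. *Bpifa3* had 6555 and 4232 in WT and 0.895 and 2.87 in *10xBulge*, at least 1914-fold lower. *Gm614*, on the X chromosome, had 1520 and 2124 in WT and was listed at 0 in both *10xBulge* libraries, at least 646-fold lower. The others of the 12 largest falls, *1700012A03Rik*, *1700008P02Rik*, *1700042G07Rik*, *Tmem239*, *Gm30302*, *Gm14147*, *Acte1*, *1700016C15Rik* and *1700015G11Rik*, stood at 1251 to 10872 in WT and at 9.86 or less in *10xBulge*. Across all genes called lower, 1355 were at or under the worth of 3 reads in both *10xBulge* libraries.

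The largest rises were smaller and of mixed kinds. *Aqp5*, a water channel, had 31.7 and 54.6 normalized counts in WT and 960 and 691 in *10xBulge* (log2 fold change 4.26, SE 0.48, limma adjusted p = 0.000153). *Fetub*, a secreted protease inhibitor, had 42.7 and 33.9 in WT and 567 and 758 in *10xBulge* (4.07, SE 0.45, adjusted p = 0.000135). *F2rl2*, a protease-activated receptor, had 0 and 0.929 in WT and 113 and 126 in *10xBulge*, at least 37-fold higher. *Timp1*, an inhibitor of matrix proteases, and *Itgax*, an integrin of dendritic cells and macrophages, rose by 3.63 and 3.57, and *Atp6v0a4* and *Dpp4* by 4.12 and 3.44.

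Other genes among the 12 largest rises were high in a *10xPerf* library too. *Greb1l* on chromosome 18, the chromosome of *Ythdc2*, had 67.5 and 90.7 normalized counts in WT, 620 and 590 in *10xPerf* and 1086 and 1221 in *10xBulge* (3.86, SE 0.39, limma adjusted p = 8.52e-05 against WT). *Gstp2*, a glutathione transferase, had 16.1 in N1 and less in N2, 88.8 and 426 in *10xPerf* and 328 and 274 in *10xBulge*. *Abca8a* had 34.5 and 74.4 in WT, 358 and 74.5 in *10xPerf* and 268 and 1172 in *10xBulge*, and its adjusted p rose to 0.190 without N1. *Gm21677*, a Y-linked gene with many near-identical copies, was listed at 0 in N1, N2 and N3 and had 134 in N4, 165 in N5 and 169 in N6, and its call was lost without N1 or N2.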

How the data were processed

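Total RNA of adult whole testes was sequenced as single-end reads (Illumina Stranded Total RNA Ribo-Zero Plus). The authors assigned reads to GRCm39 Ensembl transcripts with salmon and its GC correction, and deposited DESeq2 normalized counts (a signal, not whole reads). Other deposited columns hold the authors' log2 fold changes and adjusted p-values for each line and were not used. 

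Genes that reached 10 in 2 or more libraries entered a limma 3.58.1 fit (R 4.3.3) of log2(value + 1) on genotype, with a mean-variance trend and all 6 libraries. The fit was also run on simulated data with independent noise, which does not cover differences between whole libraries. Benjamini-Hochberg adjustment covered every gene tested (threshold 0.1). Log2 fold changes on this scale understate the change of low genes. As the table holds normalized values, no count test was run. With 2 mice per genotype small changes can be missed, and floors of 3 reads cover counting error only.

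Lists of stage and cell type markers (28 lists, 419 genes, 418 matched) are described by counts and medians, without set tests. Named are up to 5 genes per list and direction in order of p, members that ran against a list, defining markers, the 12 protein-coding genes with the largest fall and rise (no overlap, at least 100 normalized counts in both libraries of the higher group, no *Prm* or *Tnp* gene), the 8 genes gaining and losing most of the library total, and *Ythdc2*. The comparison, lists and rules were chosen with earlier results of these data known. Alternatives were other scalings, GC correction (GENCODE transcripts on GRCm38), pseudocounts, filters, thresholds, a fit of WT and *10xBulge* alone, no trend, and each library left out. Figures were drawn with Python 3.11.15 and matplotlib 3.10.9.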

Additional observations from a re-analysis of the deposited data

How the results depend on the processing

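No paired analysis was possible because the labels pair no WT library with a *10xBulge* library. DESeq2 was not run, since it needs counts. The 2712 genes called higher became 5788 with equal library totals, 1716 with *10xPerf* left out, 1370 with the threshold at 0.05, and 636 to 2858 with a library left out. The 5466 called lower became 2926 when every library had to reach 10, which removes genes near 0 in *10xBulge*, and 3919 to 5574 with a library left out.

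With equal totals the list medians became 0.76 (undifferentiated spermatogonia), 1.11 (differentiating spermatogonia), 0.50 (early prophase), 0.17 (pachytene), 0.35 (late meiotic), -0.77 (axoneme), 1.66 (Sertoli), 1.46 (progenitor and fetal Leydig), 1.18 (cholesterol), 0.68 (endothelial), 1.79 (macrophage), 1.04 (lymphocyte), 1.85 (inflammation) and 1.74 (interferon). With the GC trend removed the axoneme median was -1.22. A pseudocount of 10 gave -3.44 (spermatid genes of X and Y), 1.00 (inflammation) and 1.11 (interferon), and the filter of 10 in every library 1.20 (interferon).

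With a library left out the medians ran from 0.10 to 1.40 (all germ cells), 0.31 to 0.61 (undifferentiated spermatogonia), 0.44 to 0.93 (differentiating spermatogonia), -0.17 to 0.49 (early prophase), -0.54 to -0.11 (pachytene), -1.38 to -0.91 (axoneme), -4.97 to -4.18 (round spermatid), -4.85 to -3.68 (X and Y), 0.86 to 1.57 (Sertoli), 0.04 to 0.57 (endothelial), 1.20 to 1.72 (macrophage), 0.40 to 0.97 (lymphocyte), 1.07 to 1.44 (inflammation) and 1.07 to 1.76 (interferon). The cause of these shifts was not tested. Of 6712 log2 fold changes of 422 genes under the alternatives, 400 lost a call, 202 gained one, 0 called genes changed sign and 6110 kept their side of the threshold.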

Other observations

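A few abundant noncoding RNAs set much of the library totals and varied between libraries of a genotype. The genes that lost the largest share of the total were *Metazoa_SRP*, with 5935825 and 7270719 normalized counts in WT and 4017938 and 4065659 in *10xBulge*, and *Rn18s*, with 2406107 in N1 against 25398 in N2. *7SK* had 2529852 and 2259672 in WT and 1667280 and 1215731 in *10xBulge*. *Rn7s6* gained the largest share, through 1 library: it had 3879 and 1556 in WT, 859842 in N5 and 969 in N6, and 86651 in N3 of *10xPerf*. None of these 4 genes passed the limma test. Among protein-coding genes that lost share, *Irgc1* had 105835 and 92751 in WT and 1510 and 1058 in *10xBulge*, and *Tcp11* 144447 and 81488 in WT and 27523 and 9899 in *10xBulge*. *Gstm1* and *Agt* gained share, with 25906 and 26523 in WT against 95506 and 78935 in *10xBulge* for *Gstm1* and 23319 and 20167 against 83499 and 55584 for *Agt*. *mt-Co1*, the mitochondrial gene with the largest gain in mean share, had 492867 and 359806 in WT and 191995 and 616838 in *10xBulge*, with overlap. Its share was 0.824% and 0.635% in WT, 0.383% in N5 and 1.55% in N6, so the gain came through N6.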
